A study of Mus musculus with 12 samples.

Results

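The V1 sector of the vacuolar proton pump (V-ATPase) is encoded in this lymphoma mainly by Atp6v1a, Atp6v1b2, Atp6v1c1, Atp6v1d, Atp6v1e1, Atp6v1f, Atp6v1g1 and Atp6v1h. These 8 genes were chosen by name as the subunits of that sector, out of 23479 genes in the deposited table, and all 8 passed the filter on low values that left 13111 genes for testing. Total RNA was sequenced from 12 libraries of a single cultured mouse B cell lymphoma on the C57BL/6 background that carries both an Eµ-Myc and an Eµ-rtTA transgene. The 4 groups, with 3 libraries each, were TFEB-ERT2 cells (TFEB cells for short) in 4-hydroxytamoxifen (4-OHT), the same line in vehicle, empty-vector cells in 4-OHT and empty-vector cells in vehicle. Both lines, the vector line included, carry the Myc and rtTA transgenes and a retroviral puromycin resistance marker, were selected in puromycin and were grown with IL-7. In the TFEB cells the virus also carries the transcription factor TFEB with a serine-to-alanine change, joined to ERT2, an altered estrogen receptor domain of human origin that responds to 4-OHT. Treatment lasted 4 days, and the dose is given as 250 nM in the protocols but in ng/mL, with the same figure, in the series' design text, so it is uncertain. All libraries come from 1 tumour, and the labels do not say whether the replicates were separate transductions or cultures, so each p-value reflects only the spread among the libraries at hand.

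The V-ATPase pumps protons into lysosomes, endosomes and secretory vesicles. Its cytosolic V1 sector burns ATP in a head of alternating A and B subunits and turns a central rotor of D and F subunits, while E and G subunits form peripheral stalks that hold the head still and the C and H subunits join V1 to the membrane-embedded V0 sector. TFEB is known as an activator of lysosomal and autophagy genes, through promoter elements that contain the letters CACGTG, and mTORC1 phosphorylation of that serine keeps it in the cytoplasm. On the lysosome surface the pump also takes part in mTORC1 signalling together with the Ragulator complex.

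TFEB is known to act through promoter elements, so the promoter windows of the members were searched for 3 motifs on both strands. These were CACGTG, the longer form GTCACGTG that contains it, and TCATGTG. RefSeq windows on GRCm38.p6, from 250 bases before to 50 bases after the annotated start, were matched for Atp6v1a, Atp6v1d, Atp6v1e1 and Atp6v1f, which are 4 of the 8 members, and were not matched for Atp6v1b2, Atp6v1c1, Atp6v1g1 and Atp6v1h. The longest run of each window that lies before the start and outside exons of the gene is printed 5′ to 3′ on the gene's strand, with CACGTG in capitals.
Atp6v1a, chr16:44139306-44139461, minus strand, bases -202 to -47 from the start: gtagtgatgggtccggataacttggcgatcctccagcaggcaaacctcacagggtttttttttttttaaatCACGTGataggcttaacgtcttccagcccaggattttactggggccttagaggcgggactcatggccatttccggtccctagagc
Atp6v1d, chr12:78861639-78861888, minus strand, bases -250 to -1: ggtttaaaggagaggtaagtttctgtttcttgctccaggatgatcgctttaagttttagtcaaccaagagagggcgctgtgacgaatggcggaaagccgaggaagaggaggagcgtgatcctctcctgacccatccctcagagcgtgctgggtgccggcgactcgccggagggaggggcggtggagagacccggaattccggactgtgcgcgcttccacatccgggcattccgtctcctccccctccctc
Atp6v1e1, chr6:120822794-120822948, minus strand, bases -250 to -96: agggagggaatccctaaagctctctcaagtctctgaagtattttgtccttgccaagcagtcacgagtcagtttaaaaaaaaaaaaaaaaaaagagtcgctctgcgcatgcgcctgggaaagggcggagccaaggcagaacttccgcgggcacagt
Atp6v1f, chr6:29467533-29467717, plus strand, bases -250 to -66: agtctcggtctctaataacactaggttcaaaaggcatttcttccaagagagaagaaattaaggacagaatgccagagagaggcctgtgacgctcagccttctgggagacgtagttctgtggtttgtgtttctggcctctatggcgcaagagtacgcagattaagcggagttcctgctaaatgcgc
Over the full windows, CACGTG was found once, in Atp6v1a, starting 131 bases before the RefSeq start. In the GENCODE M21 annotation Atp6v1a spans chr16:44085402-44139705, so the whole Atp6v1a window, with its CACGTG, lies inside the gene there. Of the 250 bases before the RefSeq start of Atp6v1a, 94 are exon bases in that annotation. For Atp6v1e1 and Atp6v1f the corresponding figures are 95 and 65 bases, so the annotations also disagree on where these genes start. Of all 32851 RefSeq promoter windows of this length, 7.15% hold CACGTG, 3.77% hold TCATGTG and 2.25% hold GTCACGTG, and the last pair was not found in the 4 windows. A match is a description of the letters in the window and not a binding site. Whether a match bears on the change of a gene was not tested.

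The members lie on 7 mouse chromosomes. In mm10 with GENCODE M21 annotation, Atp6v1a spans chr16:44085402-44139705 (minus strand), Atp6v1b2 chr8:69088646-69113711 (plus), Atp6v1c1 chr15:38661933-38692446 (plus), Atp6v1d chr12:78840725-78861638 (minus), Atp6v1e1 chr6:120794305-120822793 (minus), Atp6v1f chr6:29467718-29470512 (plus), Atp6v1g1 chr4:63544772-63550750 (plus) and Atp6v1h chr1:5070018-5162529 (plus). The transcript of Atp6v1g1 is matched by 4 processed pseudogenes, the closest of them Gm13453 at 99.4% identity over 357 bases, so its values are uncertain to the extent that reads were shared with them, which was not measured. Atp6v1a and Atp6v1f each have 1 such pseudogene with at least 90% identity. Exons on the opposite strand share 32 bases with Atp6v1e1 (Slc25a18) and 127 bases with Atp6v1h (Rgs20), which is 0.779% and 1.30% of the exon bases of those members, and no source used here says whether the authors counted by strand.

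The libraries held 11849029 to 22109283 reads assigned to genes, and each member had 161 to 3030 reads in each library, with a median of 974.5. Tfeb checks the labels. It had 702, 581 and 711 normalized read counts in TFEB cells given 4-OHT, 1597, 1955 and 1476 in TFEB cells given vehicle, 231, 195 and 238 in vector cells given 4-OHT and 252, 255 and 223 in vector cells given vehicle, so every TFEB library lay above every vector library, and those given 4-OHT lay below those given vehicle. Reads of the transgene and of the mouse gene cannot be told apart. All 10 B cell markers were expressed in every group, with summed values of 69418 to 71443 in TFEB cells in 4-OHT and 86465 to 98930 in the other groups. Macrophage and osteoclast markers, which matter because those cells are rich in V-ATPase, summed to 88.3 to 258 in TFEB cells given 4-OHT, 181 to 271 in TFEB cells given vehicle, 173 to 259 in vector cells given 4-OHT and 146 to 184 in vector cells given vehicle. On the first principal component of all tested genes (42.6% of the variance), TFEB 4-OHT library 2, TFEB vehicle library 3 and vector 4-OHT library 2 stood apart from the other libraries of their groups, with scores of -137, -99.1 and -94.4.

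TFEB cells in 4-OHT were first set against the same line in vehicle, to see how transcripts of the pump differ with the ligand. Protein, assembly and activity of the pump were not measured. 4 of the 8 V1 genes rose, namely Atp6v1a, Atp6v1b2, Atp6v1d and Atp6v1e1, by 1.61-fold to 2.08-fold, and the other 4 did not pass the threshold of an adjusted p under 0.05 (limma over all tested genes). The genes that rose encode the catalytic head, one of the rotor subunits and one of the stalk subunits. Of all tested genes, 13.7% were called higher in this comparison. The median log2 change of the 8 members was 0.54, beside 0.035 over all tested genes. Total RNA from a whole culture does not tell fewer cells of a type apart from less RNA per cell.

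Atp6v1a, the subunit that hydrolyses ATP, had 2264, 2330 and 1997 normalized read counts in TFEB cells in 4-OHT, against 1200, 1180 and 1239 in TFEB cells in vehicle. The groups were far apart and the vehicle libraries lay close together. The rise was 1.82-fold, a log2 change of 0.86 ± 0.10 (SE; 95% interval 0.66 to 1.06; limma adjusted p = 1.68e-08). Atp6v1b2, the B subunit form found in most tissues, had 594, 630 and 624 in TFEB cells in 4-OHT, against 367, 318 and 223 in TFEB cells in vehicle. Its groups did not overlap, and its vehicle libraries were spread more widely than those in 4-OHT. The log2 change of Atp6v1b2 was 1.05 ± 0.16 (SE; 0.73 to 1.38; limma adjusted p = 4.34e-06), the largest of the 8.

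In the rotor, Atp6v1d had 2817, 3049 and 2939 normalized read counts in TFEB cells in 4-OHT, against 1651, 1945 and 1887 in TFEB cells in vehicle. All of its 4-OHT libraries lay well above the vehicle libraries, and the log2 change was 0.69 ± 0.10 (SE; 0.49 to 0.88; limma adjusted p = 1.39e-06). Its partner Atp6v1f, the F subunit, had 1574, 1568 and 1615 in TFEB cells in 4-OHT, against 1400, 1148 and 1516 in TFEB cells in vehicle. Every 4-OHT library of Atp6v1f was above every vehicle library, but the gap was small beside the spread in vehicle, and the change did not pass the threshold (log2 0.24 ± 0.11 SE; 0.00 to 0.47; limma adjusted p = 0.130).

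In the peripheral stalk, Atp6v1e1 had 1298, 1070 and 1167 normalized read counts in TFEB cells in 4-OHT, against 710, 740 and 712 in TFEB cells in vehicle. The vehicle libraries were nearly equal and all lay below the 4-OHT libraries, and the log2 change was 0.70 ± 0.12 (SE; 0.46 to 0.95; limma adjusted p = 2.99e-05). Atp6v1g1, the G subunit that pairs with E, had 674, 609 and 731 in TFEB cells in 4-OHT, against 650, 539 and 777 in TFEB cells in vehicle. Its groups overlapped throughout, with a log2 difference of 0.05 ± 0.14 (SE; -0.24 to 0.34; limma adjusted p = 0.882), so that a rise as large as that of Atp6v1e1 lay outside its interval.

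Of the subunits that join V1 to V0, Atp6v1c1, the C subunit, had 547, 851 and 742 normalized read counts in TFEB cells in 4-OHT, against 522, 416 and 698 in TFEB cells in vehicle. Libraries of the same group differed as much as the groups did, and the difference missed the threshold (log2 0.39 ± 0.17 SE; 0.05 to 0.74; limma adjusted p = 0.0806). That outcome depended on single libraries and on their weights. Atp6v1c1 passed without TFEB vehicle library 3 (limma adjusted p = 0.0101) or without TFEB 4-OHT library 1 (0.0146). It also passed with array weights, which keep all 12 libraries but weight each (limma adjusted p = 0.00549). The range was 0.00549 to 0.424 over all alternatives. Atp6v1f passed without TFEB vehicle library 3 as well (limma adjusted p = 0.0491; range 0.0491 to 0.526). Atp6v1h, the H subunit, known in yeast to silence the ATPase of V1 sectors that have come off the membrane, had 1015, 1048 and 937 in TFEB cells in 4-OHT, against 900, 1189 and 845 in TFEB cells in vehicle. Its 4-OHT values fell inside the vehicle range, with a log2 difference of 0.05 ± 0.12 (SE; -0.20 to 0.29; limma adjusted p = 0.852).

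**Figure D1:**
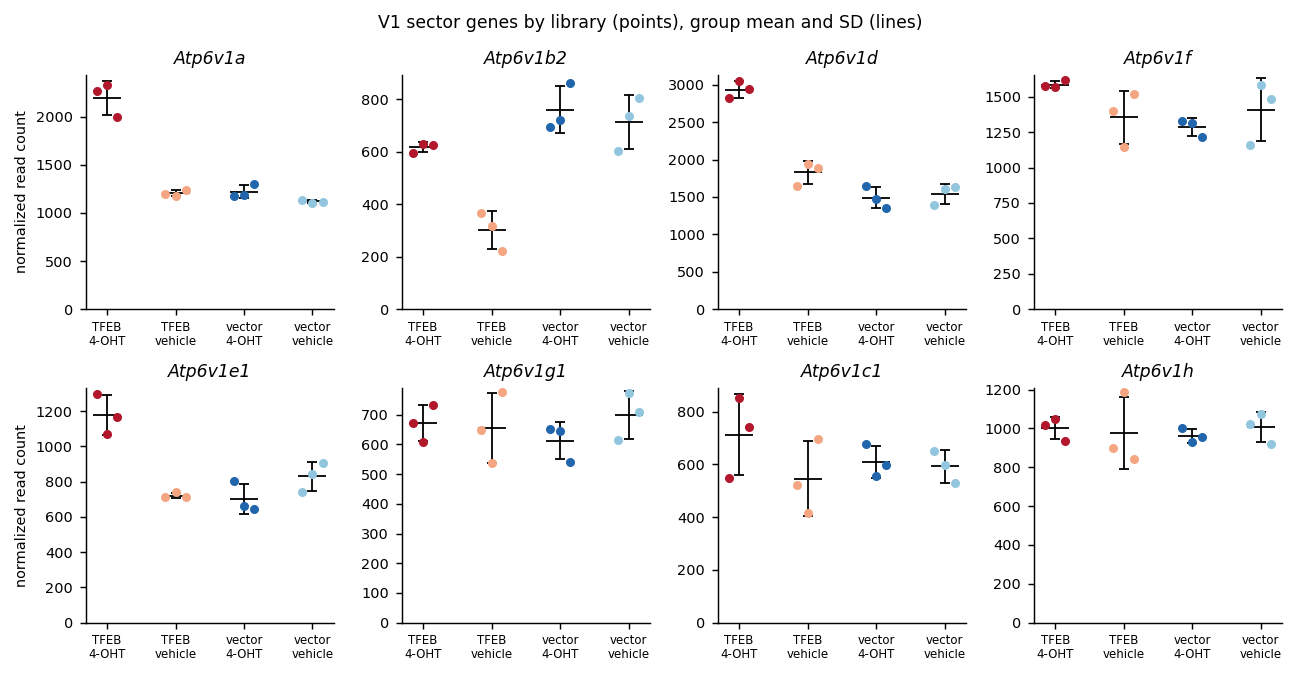
Normalized read counts (vertical axis, from 0) of the 8 V1 genes in each library, by group from left to right: TFEB 4-OHT, TFEB vehicle, vector 4-OHT and vector vehicle; points are libraries and lines the mean and SD of 3. Atp6v1a, Atp6v1d and Atp6v1e1 are high in TFEB cells in 4-OHT alone, Atp6v1b2 is low in TFEB cells in vehicle, with 223 to 367, and Atp6v1g1 and Atp6v1h are level across the groups.

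Counting libraries instead of test calls, 5 of the 8 members had all 4-OHT libraries above all vehicle libraries in TFEB cells, as did 19.6% of all tested genes. A comparison without the 3 libraries that stood apart on the first component of all tested genes was chosen after the data were seen. In it the called members were again Atp6v1a (log2 0.84), Atp6v1b2 (0.83), Atp6v1d (0.68) and Atp6v1e1 (0.76). Several features of the libraries moved with the same contrast. The B cell marker sum was lower in TFEB cells in 4-OHT than in any other group, with 7 of the 10 markers lower and 2 higher against TFEB cells in vehicle. Of all tested genes, 13.9% were called lower and 13.7% higher in that comparison. The share of reads on the ribosomal gene Rn45s was 4.13% to 4.53% in TFEB cells in 4-OHT, against 4.76% to 6.66% in TFEB cells in vehicle. Markers of macrophages and osteoclasts moved in both directions, although their summed ranges overlapped. Of the 6 tested genes of that list 1 was called lower (limma), Mrc1, with 37.7, 42.6 and 23.3 normalized read counts in TFEB cells in 4-OHT, against 165, 140 and 131 in TFEB cells in vehicle (log2 -2.08). The other 5 were not called. Csf1r was among the list's genes with higher values, with 37.7, 25.8 and 24.3 in TFEB cells in 4-OHT, against 16.3, 0 and 20.7 in TFEB cells in vehicle, and its groups did not overlap. Emr1 was listed at 0 to 12.9 in TFEB cells in 4-OHT and 0 to 18.0 in TFEB cells in vehicle. The part of these features in the result was not tested.

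In vector cells the same treatment tests whether 4-OHT acts without the fusion. The number of V1 members called was 0 of 8 by limma, by edgeR and by DESeq2, and 0 of 8 had an unadjusted limma p under 0.05. Over all tested genes 2 were called, or 0.0153%, edgeR called 0% and DESeq2 0.366%, and 6.27% had an unadjusted limma p under 0.05. The members' median log2 difference was -0.06, beside 0.027 over all tested genes. Atp6v1a had 1181, 1182 and 1301 normalized read counts in vector cells in 4-OHT, against 1139, 1107 and 1116 in vector cells in vehicle, and was the only member whose groups did not overlap, as was the case in the same direction for 5.43% of all tested genes. That gap was small, with a log2 difference of 0.12 ± 0.10 (SE; -0.07 to 0.32; limma adjusted p = 0.913). Atp6v1e1 lay on the other side, with 802, 661 and 645 in vector cells in 4-OHT, against 739, 841 and 907 in vector cells in vehicle. Those groups overlapped, and its log2 difference of -0.24 ± 0.12 (SE; -0.49 to 0.01; limma adjusted p = 0.802) was the farthest from 0 among the members. The others lay between -0.19 and 0.09.

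The effect of 4-OHT in TFEB cells was then set against its effect in vector cells in the interaction term of the same fit. The 4 members that had risen in TFEB cells also passed this test, while 7.75% of all tested genes were called higher in it. The interaction term uses the TFEB libraries that gave the first calls, so it is not separate support for them. The log2 difference of effects was 0.74 ± 0.14 for Atp6v1a (SE; limma adjusted p = 0.000151), 0.96 ± 0.23 for Atp6v1b2 (0.00258), 0.74 ± 0.14 for Atp6v1d (0.000178) and 0.94 ± 0.17 for Atp6v1e1 (0.000128). It did not pass for Atp6v1c1 (0.36 ± 0.24; limma adjusted p = 0.386), Atp6v1f (0.36 ± 0.16; 0.148), Atp6v1g1 (0.24 ± 0.20; 0.534) or Atp6v1h (0.11 ± 0.17; 0.783). Atp6v1f passed only without vector vehicle library 1 (limma adjusted p = 0.0325; range over the alternatives 0.0325 to 0.381).

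**Figure D2:**
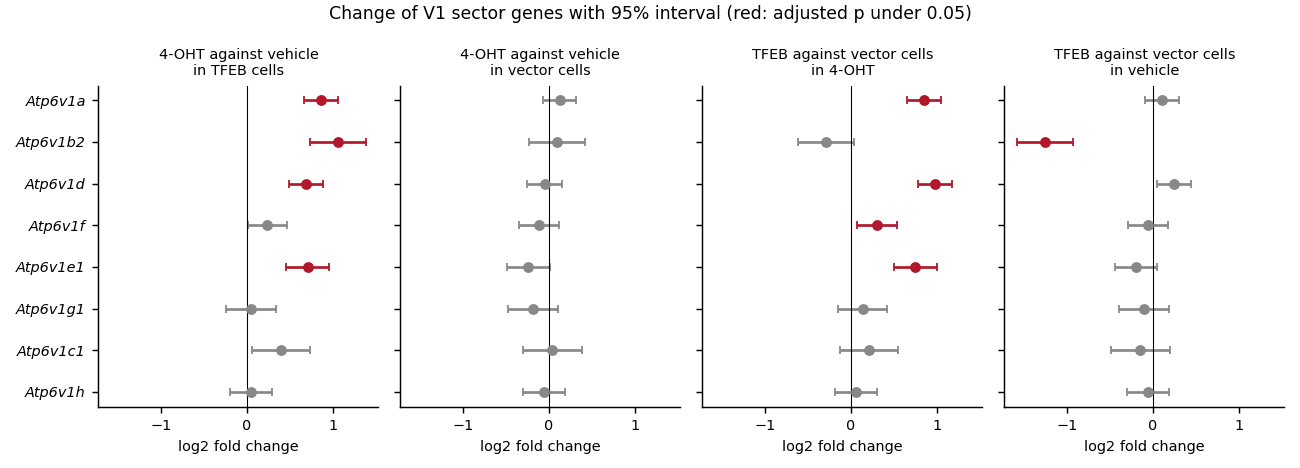
Log2 fold change (horizontal axis) with its 95% interval for each V1 gene in 4 comparisons, from limma on all 12 libraries; red marks an adjusted p under 0.05. Atp6v1a, Atp6v1d and Atp6v1e1 are higher both against vehicle in TFEB cells and against vector cells in 4-OHT, whereas Atp6v1b2 is higher against vehicle (1.05) and lower in TFEB than in vector cells in vehicle (-1.25).

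Without the ligand, the V1 genes of TFEB and vector cells were compared in vehicle. Atp6v1b2 was the only member called, and it was lower in TFEB cells, with 367, 318 and 223 normalized read counts in TFEB cells in vehicle, against 601, 735 and 803 in vector cells in vehicle. The highest TFEB library was well under the lowest vector library, a gap in this direction that 9.66% of tested genes had. The log2 difference was -1.25 ± 0.16 (SE; -1.58 to -0.93; limma adjusted p = 2.2e-06), which is 2.39-fold lower. Of all tested genes 2.49% were called lower in this comparison. Atp6v1a and Atp6v1d had all 3 TFEB libraries above all 3 vector libraries, as did 12% of all tested genes, but neither passed (log2 0.11, limma adjusted p = 0.609, and 0.24, 0.164). The other 5 members had log2 differences from -0.20 to -0.05 and overlapping groups. The low level of Atp6v1b2 did not rest on 1 library, since its log2 difference stayed between -1.41 and -1.05 when any library was left out.

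With 4-OHT present, 4 members were higher in TFEB cells than in vector cells, and 13.6% of all tested genes were called higher. The rotor gene Atp6v1d had the largest difference, with 2817, 3049 and 2939 normalized read counts in TFEB cells in 4-OHT, against 1640, 1474 and 1359 in vector cells in 4-OHT (log2 0.98 ± 0.10 SE; limma adjusted p = 1.52e-09). Atp6v1a differed by log2 0.84 ± 0.10 (limma adjusted p = 2.43e-08) and Atp6v1e1 by 0.75 ± 0.12 (1.17e-05). Atp6v1f was also called, at log2 0.30 ± 0.11 (limma adjusted p = 0.0457), with 1574, 1568 and 1615 in TFEB cells in 4-OHT, against 1329, 1316 and 1215 in vector cells in 4-OHT. The groups of these 4 members did not overlap, as was true in this direction of 20.2% of tested genes. For Atp6v1f, however, the call was lost in 15 of 27 alternatives, among them the removal of any 1 of the 6 libraries compared (limma adjusted p = 0.0675 to 0.139) and edgeR (0.0995), with a range of 0.0141 to 0.155.

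Atp6v1b2 did not follow the other members in that comparison. It had 594, 630 and 624 normalized read counts in TFEB cells in 4-OHT, against 696, 720 and 862 in vector cells in 4-OHT, so all of its TFEB libraries lay below all of its vector libraries, as was true of 18.9% of tested genes. The difference did not pass (log2 -0.30 ± 0.16 SE; -0.62 to 0.03; limma adjusted p = 0.192). The rise of Atp6v1b2 with 4-OHT thus started from the low level of TFEB cells in vehicle and ended no higher than the level of vector cells, whereas Atp6v1a, Atp6v1d and Atp6v1e1 ended 1.68-fold to 1.97-fold above it. Atp6v1c1, Atp6v1g1 and Atp6v1h had log2 differences of 0.21, 0.13 and 0.06 between the lines in 4-OHT, and none of these passed (limma adjusted p = 0.420 to 0.798).

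Levels of different genes were compared per kilobase of exon. Atp6v1f had the highest mean per kb of the members in every group. It had 1492 ± 24.0 normalized read counts per kb in TFEB cells given 4-OHT and 1275 ± 177 in TFEB cells given vehicle. In vector cells it had 1210 ± 58.7 with 4-OHT and 1326 ± 210 with vehicle (SD, n = 3 each). Atp6v1g1 came next in TFEB cells in vehicle and in both vector groups, followed by Atp6v1d. In TFEB cells in 4-OHT Atp6v1d had the higher mean per kb, 638 ± 25.2 beside 592 ± 53.9 for Atp6v1g1, but the ranges of these 2 genes overlapped there. Atp6v1a averaged 363 ± 29.2 per kb in TFEB cells in 4-OHT and 200 ± 4.90 in TFEB cells in vehicle, and Atp6v1e1 averaged 287 ± 27.8 in TFEB cells in 4-OHT and 175 ± 3.99 in TFEB cells in vehicle. Atp6v1h stayed between means of 98.5 and 103 per kb in all groups.

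Atp6v1b2 changed its place in this order. It had 116 ± 3.62 normalized read counts per kb in TFEB cells given 4-OHT, 57.0 ± 13.8 in TFEB cells given vehicle, 143 ± 16.9 in vector cells given 4-OHT and 134 ± 19.4 in vector cells given vehicle. In TFEB cells in vehicle it was the lowest member and its range did not meet that of Atp6v1c1, the next above it. Neighbours whose ranges overlapped were Atp6v1c1 and Atp6v1b2 in TFEB cells in 4-OHT, Atp6v1h and Atp6v1c1 in TFEB cells in vehicle, Atp6v1e1 and Atp6v1b2 and also Atp6v1c1 and Atp6v1h in vector cells in 4-OHT, and Atp6v1e1 and Atp6v1a, Atp6v1b2 and Atp6v1c1, and Atp6v1c1 and Atp6v1h in vector cells in vehicle. The length used is that of all annotated exons of a gene merged. For a gene with long alternative ends such as Atp6v1h (9746 bases) it can exceed the transcript in use and lower the value per kb. The place of Atp6v1f (1063 bases) above Atp6v1d (4602 bases) rests on this division. Undivided, the means of Atp6v1d were higher, with 2935 beside 1586 for Atp6v1f in TFEB cells in 4-OHT and 1828 beside 1355 in vehicle. In vector cells they were 1491 beside 1287 in 4-OHT and 1546 beside 1409 in vehicle.

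**Figure D3:**
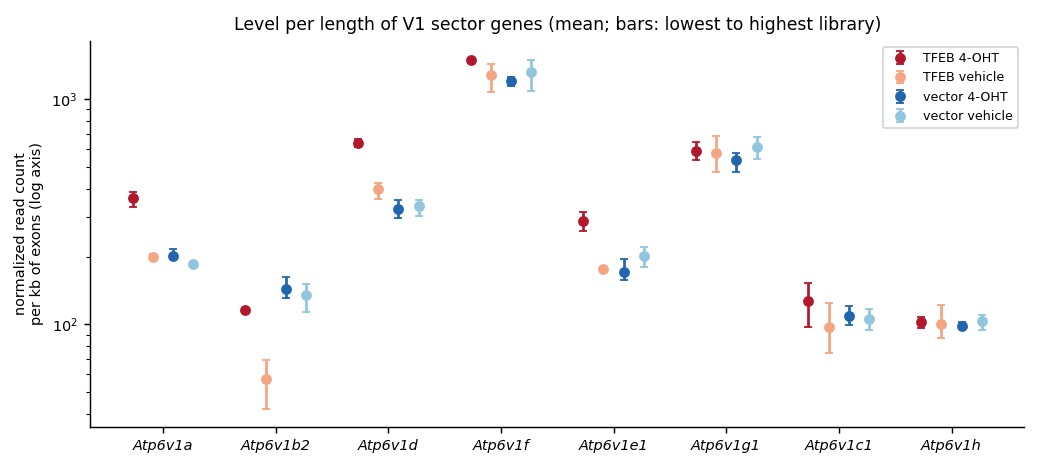
Mean normalized read count per kb of exon (log axis) of each V1 gene in TFEB 4-OHT, TFEB vehicle, vector 4-OHT and vector vehicle cells, left to right within each gene; bars run from the lowest to the highest of 3 libraries. Atp6v1f is the highest in all groups, and Atp6v1b2 has its lowest point in TFEB cells in vehicle (57.0).

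Ratios of reads within a library do not depend on how libraries are scaled, and were taken for 4 pairs picked after the values were seen, so they are a description with no test. The reads of Atp6v1a over those of Atp6v1h averaged 2.19 ± 0.056 in TFEB cells given 4-OHT, 1.26 ± 0.24 in TFEB cells given vehicle, 1.27 ± 0.093 in vector cells given 4-OHT and 1.12 ± 0.090 in vector cells given vehicle (SD, n = 3 each). The rotor pair Atp6v1d over Atp6v1f averaged 1.85 in TFEB cells given 4-OHT, 1.37 in TFEB cells given vehicle, 1.16 in vector cells given 4-OHT and 1.11 in vector cells given vehicle. The stalk pair Atp6v1e1 over Atp6v1g1 averaged 1.76 in TFEB cells given 4-OHT, 1.13 in TFEB cells given vehicle, 1.15 in vector cells given 4-OHT and 1.19 in vector cells given vehicle. In each of these 3 pairs the TFEB libraries in 4-OHT lay above all other libraries. The head pair behaved otherwise. Atp6v1b2 over Atp6v1a averaged 0.282 ± 0.027 in TFEB cells in 4-OHT and 0.252 ± 0.065 in TFEB cells in vehicle, against 0.620 ± 0.038 in vector cells in 4-OHT and 0.637 ± 0.099 in vector cells in vehicle, so it separated the lines and not the treatments. A read ratio between genes of different length is not a ratio of molecules, and comparisons of it hold only between libraries.

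**Figure D4:**
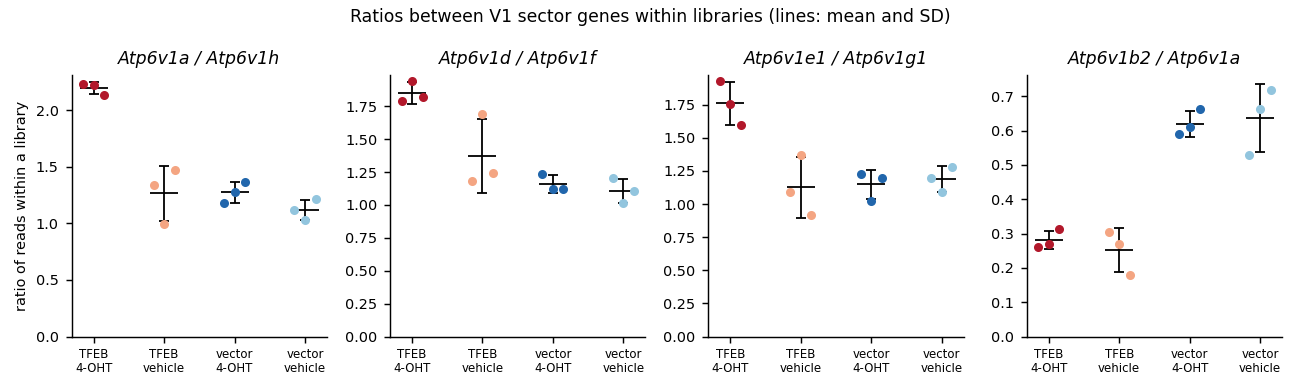
Ratio of reads of 2 V1 genes within each library (vertical axis, from 0), by group from left to right: TFEB 4-OHT, TFEB vehicle, vector 4-OHT and vector vehicle; points are libraries and lines the mean and SD of 3. The first 3 ratios are highest in TFEB cells in 4-OHT, while Atp6v1b2 over Atp6v1a lies between 0.180 and 0.312 in all TFEB libraries and between 0.528 and 0.720 in all vector libraries.

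The V1 sector has further isoforms, which are known for narrower tissue patterns such as kidney, testis and brain. Atp6v1b1, the kidney form of the B subunit, was listed at 0 in 7 of 12 libraries and reached 16.6 normalized read counts at most, and Atp6v1e2, the testis form of E, was at 0 except in TFEB 4-OHT libraries 1 and 2, with 5.38 and 18.1. Atp6v1g3 reached 5.16. Of the 5 isoforms only Atp6v1c2 and Atp6v1g2 passed the filter, and neither was called in TFEB cells (limma adjusted p = 0.879 and 0.622). Atp6v1g2, the brain form of G, was highest in TFEB 4-OHT library 2 (77.4) and TFEB vehicle library 3 (41.5), 2 of the libraries that stood apart.

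Of 12 genes of the V0 sector and its accessory subunits, 8 were tested, and 6 of them rose with 4-OHT in TFEB cells while the other 2 did not pass, with a median log2 change of 0.74. Atp6v0a1, a membrane subunit that carries protons with the ring, had 725, 831 and 857 normalized read counts in TFEB cells in 4-OHT, against 397, 289 and 386 in TFEB cells in vehicle (log2 1.18 ± 0.18 SE; limma adjusted p = 6.51e-06). Atp6ap2, the prorenin receptor and an accessory subunit, rose by log2 1.14 ± 0.14 (limma adjusted p = 6.36e-08), and Atp6v0d1, which couples the rotor to the ring, by 0.75 ± 0.13 (5.34e-05). Atp6v0c, the main ring subunit, was listed at 0 in all 12 libraries and was not tested. Whether that 0 reflects its expression or how reads were counted was not measured, and the V0 levels given next leave it out. The mean log2 level of the V1 genes minus that of the tested V0 and accessory genes was 0.46 to 0.59 in TFEB cells given 4-OHT, 0.72 to 0.92 in TFEB cells given vehicle, 0.88 to 1.07 in vector cells given 4-OHT and 0.89 to 1.09 in vector cells given vehicle, so it was lowest in the TFEB libraries in 4-OHT.

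Among 11 genes for assembly of the pump, 4 rose and 2 fell with 4-OHT in TFEB cells, with a median log2 change of 0.40. Over all tested genes, 13.7% were called higher and 13.9% lower. The TLDc-domain genes, whose proteins are known to bind V1, did not move together. Tbc1d24 rose 3.48-fold (log2 1.80 ± 0.15 SE; limma adjusted p = 1.64e-11) and Ncoa7 by log2 0.94 ± 0.14 (2.89e-06), while Oxr1 fell by 0.71 on the log2 scale (limma adjusted p = 2.31e-05). Of the RAVE-type complex that reattaches V1 to V0, Wdr7 rose by log2 0.42 ± 0.12 (limma adjusted p = 0.00547) and Dmxl1 did not pass (log2 0.17, 0.190). Rogdi fell by 0.77 on the log2 scale (limma adjusted p = 0.0127), although its groups overlapped. It had 161 to 242 normalized read counts in TFEB cells in 4-OHT and 235 to 399 in TFEB cells in vehicle. The interaction term of Rogdi did not pass (limma adjusted p = 0.118). Of 12 Ragulator and lysosomal ion channel genes 3 rose and the other 9 did not pass, with a median of 0.06: the chloride-proton exchanger Clcn7 (log2 1.31 ± 0.19 SE; limma adjusted p = 1.51e-06), its partner Ostm1 (0.60 ± 0.12; 0.0003) and the Ragulator anchor Lamtor1 (0.95 ± 0.19; 0.000206). For the 6 genes of the mitochondrial F1 list, the related motor that makes ATP, with its inhibitor Atpif1, log2 differences ran from -0.22 to 0.07 with a median of -0.14 (limma adjusted p = 0.147 to 0.604).

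The members differed among themselves in how closely they followed their common profile, the mean of their log2 values after each gene was centred over the 12 libraries. Each gene is itself part of that mean, and its difference also depends on the size of its own changes. Atp6v1f (root mean square difference 0.138 on the log2 scale) and Atp6v1e1 (0.164) were the nearest to it and Atp6v1b2 (0.516) was the farthest. From a flat profile Atp6v1f differed by 0.174, Atp6v1e1 by 0.317 and Atp6v1b2 by 0.570. Atp6v1a (0.251), Atp6v1d (0.276) and Atp6v1c1 (0.215) lay nearer to the common profile than to a flat one, from which they differed by 0.394, 0.402 and 0.261. Atp6v1g1 (0.215) and Atp6v1h (0.219) lay nearer to a flat profile, at 0.167 and 0.127. Of 7786 other genes whose mean reached 200, the 8 with the smallest difference from that profile were Psmd8 (0.0336), Capns1 (0.0635), Pdha1 (0.0671), Drosha (0.0739), Slc25a12 (0.0746), Hnrnpf (0.0747), Copa (0.0772) and Cd164 (0.0777). Psmd8, a subunit of the proteasome lid, had a log2 change of 0.49 with 4-OHT in TFEB cells and of -0.04 in vector cells. These likenesses are over 12 libraries that share the 4 groups and are given without a test.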

How the data were processed

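The build mm10 and the tools DESeq2 1.6.3, HTSeq 0.6.1 and STAR 2.5.3 are named, without roles, in the submitters' processing notes; annotation and filters are not given there. The deposited signal values are normalized read counts, which the authors made by dividing gene reads by 1 size factor per library. Whole reads were recovered, since 100% of nonzero values, within 0.001, were multiples of the value of 1 read. A count of 0 allows up to 3 reads, or 2.21 to 4.15 normalized read counts depending on the library. This covers counting error only. Chi-square per degree of freedom between libraries of a group was 7.88 to 25.5, so no pair agreed within sampling noise.

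Genes reaching 10 in 3 or more libraries were tested with limma 3.58.1 in R 4.3.3 on log2(value + 1), with a variance trend, 1 mean per group over all 12 libraries and 8 residual degrees of freedom. Benjamini-Hochberg adjustment ran over all 13111 tested genes, with a threshold of 0.05, for 5 comparisons. Fold changes are on that scale and understate changes of low genes. Comparisons share libraries, so values are set side by side without overlaps. Alternatives included edgeR 4.0.16 (quasi-likelihood) and DESeq2 1.42.0 on the recovered reads. Tested on simulated data for 4-OHT in TFEB cells over 12044 genes, the limma fit recovered 68% of 1.5-fold and 98% of 2-fold changes. It also called 12 unchanged genes. Only 100 well-expressed genes were changed by each fold, whereas 27.5% of tested genes were called in the data, so recovery in the data may differ.

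The members, lists and tests were chosen with earlier results of these data known. The text names the 8 members and Tfeb, up to 3 genes of each list with the largest called change with 4-OHT in TFEB cells, and the 8 genes closest to the members' profile; other genes named were chosen after their values were seen.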

Additional observations from a re-analysis of the deposited data

Results flagged for a closer look

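In 4 V1 genes the effect of 4-OHT differed between TFEB cells and vector cells by the interaction term of the limma fit. The difference of the log2 effects was 0.74 for Atp6v1a (limma adjusted p = 0.000151), which had log2 changes of 0.86 in TFEB cells and 0.12 in vector cells. It was 0.96 for Atp6v1b2 (limma adjusted p = 0.00258), from log2 changes of 1.05 in TFEB cells and 0.09 in vector cells. For Atp6v1d it was 0.74 (limma adjusted p = 0.000178), with 0.69 in TFEB cells and -0.05 in vector cells. For Atp6v1e1 it was 0.94 (limma adjusted p = 0.000128), with 0.70 in TFEB cells and -0.24 in vector cells. In each of these genes all 3 TFEB libraries in 4-OHT lay above all 3 TFEB libraries in vehicle. Unlike the others, Atp6v1b2 started 2.39-fold lower in TFEB cells than in vector cells in vehicle. In 4-OHT it was not above vector cells (log2 -0.30; limma adjusted p = 0.192).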

How the results depend on the processing

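The calls of Atp6v1a, Atp6v1b2, Atp6v1d and Atp6v1e1 with 4-OHT in TFEB cells and the lower call of Atp6v1b2 between the lines in vehicle held in all 27 alternatives, and the interaction calls of those 4 genes in all 26, with adjusted p of up to 0.0487 for Atp6v1b2. The count of members called stayed at 4 to 6 for 4-OHT in TFEB cells, 0 in vector cells, 4 to 5 for the interaction, and 1 and 3 to 4 between the lines in vehicle and in 4-OHT. The removal of the 3 libraries that stood apart was chosen after seeing the data. Each member had at least 161 reads in each library.

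For 4-OHT in vector cells the 2 genes called became 0 with a pseudocount of 0.5, a minimum of 50, upper-quartile scaling, no trend, only the groups compared, edgeR or the number of genes with a read as covariate. They became 42 with array weights, 48 with DESeq2, 51 without vector 4-OHT library 2 and TFEB vehicle library 3 and 57 without the 3 libraries that stood apart, and 0 to 51 when each library was left out in turn. For TFEB against vector cells in vehicle, 705 genes became 259 with no trend, 1125 with array weights, 1214 with DESeq2 and 433 to 826 when each library was left out. The cause was not tested.

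Among single genes, the direction turned only for members that were not called. Atp6v1h with 4-OHT in TFEB cells turned to -0.0061 with edgeR, -0.050 without both of those libraries and -0.085 without the 3, and its interaction to -0.012 and -0.046 in those last settings. Between the lines Atp6v1h turned to 0.045 in vehicle in both of them, and in 4-OHT to -0.0022 with array weights and -0.0018 without the 3. Atp6v1c1 in vector cells turned to -0.021 with the covariate. Leaving out each library gave -0.086 to 0.18 for Atp6v1g1 and -0.050 to 0.20 for Atp6v1h in TFEB cells, and -0.024 to 0.19 for Atp6v1b2, -0.041 to 0.11 for Atp6v1c1 and -0.13 to 0.012 for Atp6v1d in vector cells. Between the lines in vehicle it gave -0.34 to 0.031 for Atp6v1c1, -0.19 to 0.061 for Atp6v1f, -0.23 to 0.030 for Atp6v1g1 and -0.20 to 0.045 for Atp6v1h.

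The correlation of same-numbered libraries' deviations ran from -0.522 to 0.0292 between the TFEB groups, -0.230 to 0.184 between the vector groups, -0.152 to 0.142 between the lines in vehicle and 0.0771 to 0.671 between the lines in 4-OHT, where all 3 pairs were positive. In none of these 4 comparisons did every pair exceed 0.1, and the labels tie no number to a shared culture or day, so the numbers were not taken to pair the libraries. With the replicate block, 4 members and 3601 genes were called for 4-OHT in TFEB cells, 0 and 2 for 4-OHT in vector cells, 4 and 2094 for the interaction, 1 and 723 between the lines in vehicle, and 4 and 3548 between them in 4-OHT. The counts of members were the same without it.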
